A study of Homo sapiens with 12 samples.

Results

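Footprint occupancy per bound RNA was measured in the APEX2-NES line as the number of exonic crosslinked reads of a gene for every 1000 reads of the same gene in the streptavidin-bound RNA. Members were protein-coding genes with at least 10 crosslinked reads and at least 100 bound reads. Of 18861 protein-coding genes present in both tables, 4403 met this rule. Exonic reads were those that the deposited counts place in the 5′ UTR, coding sequence or 3′ UTR. Both counts grow with transcript length, so the ratio can be compared between genes.

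The series used Proximity-CLIP, in which proteins near an APEX2 peroxidase are tagged with biotin and the RNA crosslinked to them is recovered. All lines derive from HEK293 T-REx, cells of human embryonic kidney origin that switch on transgenes with doxycycline. The stable lines inducibly expressed V5-APEX2-NES, a peroxidase with a nuclear export signal that works in the cytoplasm, V5-H2B-APEX2 on chromatin, or Connexin43-EGFP-APEX2 at cell contacts, and T-REx cells without an APEX2 transgene were the negative control. All 4 lines, the negative control included, were labelled with 4-thiouridine (4SU) and induced with doxycycline for 16 h and received biotin-phenol for 30 min before the biotinylation step. The labels do not say whether a line was 1 clone. Each line had 1 footprint sample and 1 bound RNA library in the 2017 table, so no p-value is given. The footprint counts were deposited as pooled long and short footprints. Occupancy intervals are exact 95% intervals, those of differences between lines come from the delta method, and both cover counting error only.

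An mRNA in the cytoplasm is packaged with RNA-binding proteins that sit on its untranslated regions and coding sequence, and ribosomes clear proteins from the coding sequence as they translate it. Crosslinking through 4SU, a uridine analog taken up into new RNA, joins a protein to the RNA it touches, and nuclease digestion leaves the protected stretch as a footprint. Footprint reads per bound RNA molecule thus combine how often a transcript is contacted, how well it crosslinks and how much 4SU it carries.

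The APEX2-NES libraries held 575990 crosslinked reads in 45015 clusters and 14584546 bound reads. Those of H2B-APEX2 held 1741844 crosslinked and 16529730 bound reads, those of Connexin43-APEX2 held 270633 and 8959049, and those of the negative control held 185487 and 22952389. The same member rule kept 6458 genes in H2B-APEX2, 2803 in Connexin43-APEX2 and 3350 in the negative control. A gene at 0 in the footprint counts had no called cluster.

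The bound RNA contained transcripts that the footprints nearly lacked. Of 29 genes typical of fibroblasts, which an HEK293 culture should not hold, 28 had at least 100 bound reads in APEX2-NES, and together they made up 1.53% of protein-coding bound reads against 0.0165% of protein-coding crosslinked reads. Their share of bound reads was 0.0664% in H2B-APEX2, 0.878% in Connexin43-APEX2 and 1.42% in the negative control. In the 2016 bound RNA it was 1.93% in APEX2-NES, 0.448% in Connexin43-APEX2 and 3.72% in the negative control. In total RNA of 2017 it was 0.207% in APEX2-NES, 0.153% in H2B-APEX2, 0.423% in Connexin43-APEX2 and 0.180% in the negative control. FN1, which encodes the matrix protein fibronectin, had 15214 bound reads and 0 crosslinked reads in APEX2-NES. The collagen gene COL1A2 had 6027 bound and 0 crosslinked reads, and THBS1, a secreted matrix glycoprotein gene, had 12068 and 0; these genes were chosen after their values were seen. Of the list, 2 genes were members, TIMP1 at 61.4 and TIMP3 at 67.2 reads per 1000, and both were called low under the rule given below. Of 10 blood cell genes none was a member. In bulk samples fewer cells of a type and less RNA per cell cannot be told apart, and the part of such RNA in any result below was not tested.

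Of the lists, ribosomal proteins and other mRNAs known for a common start sequence had the lowest median occupancies. Many of these mRNAs begin with a 5′ terminal oligopyrimidine (TOP) tract, a run of C and T that begins with C at the first transcribed base and places their translation under nutrient control. The first 20 bases from the annotated start are shown for TOP mRNAs with low occupancy and for 3 members of high occupancy, so that the tract, in capitals, can be compared. Sequences and positions are from RefSeq on GRCh38.p14, and capitals mark a C at the first base followed by at least 4 pyrimidines, to the end of the run.
EEF1A1 (chr6:73521013-73521032, minus strand): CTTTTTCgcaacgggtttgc
EEF2 (chr19:3985444-3985463, minus strand): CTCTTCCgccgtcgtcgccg
RPLP0 (chr12:120201092-120201111, minus strand): CCTTCTCTCgccaggcgtcc
RPS19 (chr19:41860255-41860274, plus strand): CCCTTTCCCCTggctggcag
RPS16 (chr19:39435930-39435949, minus strand): CCTTTTCCggttgcggcgcc
RPSA (chr3:39406720-39406739, plus strand): CTTTTCCgtgctacctgcag
KLHL15 (chrX:24027167-24027186, minus strand): gtttcaactcttgcttgaat
SOX4 (chr6:21593751-21593770, plus strand): gctctaagctgcagcaagag
RCC1 (chr1:28506043-28506062, plus strand): CCTTTTTggagacagattcg

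The tract was found at the annotated start, on the transcribed strand, of 29 of 47 ribosomal protein members with a start in the table (61.7%) and of 8 of 10 other TOP members (80%). Among all 3703 members with a start it was found in 6.56%, and among 14687 protein-coding genes in 4.62%. Of the members called low 8.87% held it, and of those called high 4.84%. RCC1 shows that a member of high occupancy can hold the letters too. Outside both TOP lists, 206 members with the tract had a median of 136 reads per 1000 and 3440 without it a median of 148, and these medians lay close together.

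Occupancy varied widely among the members. The median was 145.7 exonic crosslinked reads per 1000 bound reads, the middle 50% of members lay between 64.6 and 316, and the 95th percentile of 881 was 70.5 times the 5th percentile of 12.5. A member was called high, or low, when it lay at least 2-fold above, or below, the median and its counting interval excluded the median. By this rule 1220 members were high (27.7%) and 1241 were low (28.2%), and these shares are the background for every list below. The plot of footprint reads against bound reads shows this spread.

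**Figure D1:**
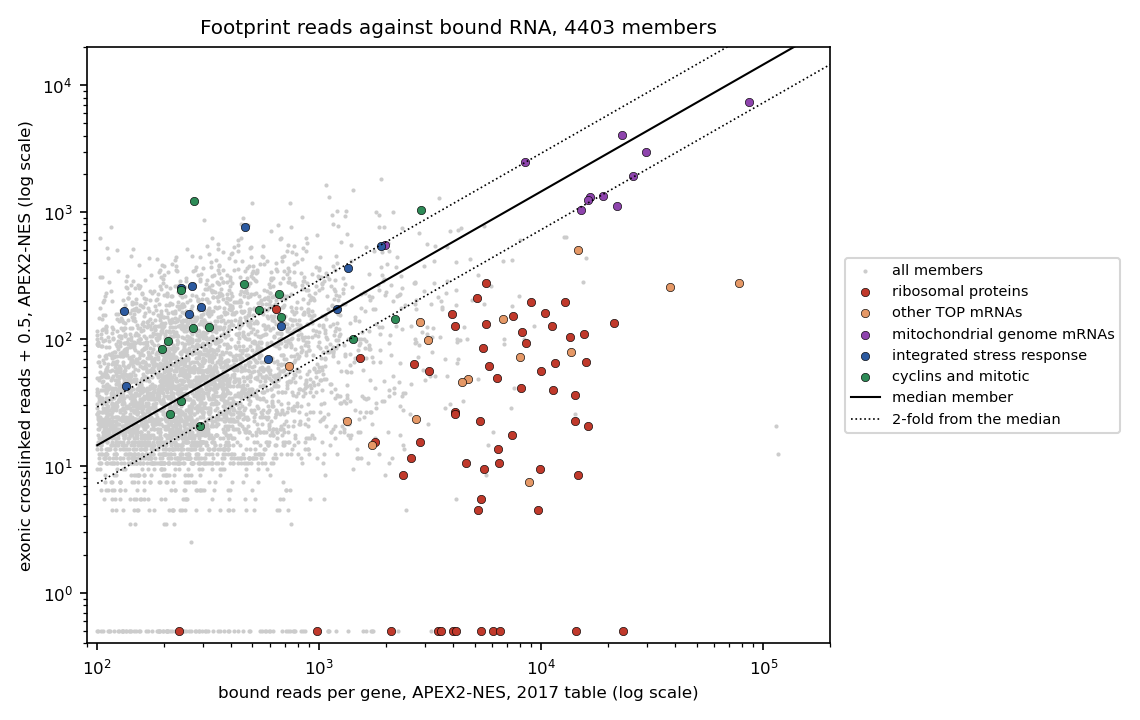
Each point is a member, with bound reads in APEX2-NES on the x axis and exonic crosslinked reads plus 0.5 on the y axis, both on log scales. The solid line is the median of 145.7 reads per 1000 and the dotted lines are 2-fold from it. Of 59 members of the ribosomal protein list 58 were called low. The exception, RPL7L1, a gene named as RPL7-like, at 269 per 1000, lies above the solid line.

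The second measurement of the same denominator, the APEX2-NES column of the 2016 table, gave a view of its spread. The labels do not say whether it is a separate library. The log2 ratio of 2016 over 2017 bound reads had an SD of 0.57 over members, against an SD of 1.72 for log2 occupancy. Of 4401 members with 2016 bound reads, 92.3% had a ratio within 2-fold of the median ratio. Of 1187 members called high that also met the rule with 2016 reads, 891 were high again, of 1209 called low 1034 were low again, and 1 had the opposite call.

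Members near the limits of the rule were alike on both sides. Those with 10 to 12 crosslinked reads had a median of 39.5 reads per 1000 (266 genes) and genes just outside, with 7 to 9, had 33.7 (289 genes). Those with 100 to 120 bound reads had a median of 239 (322 genes) and genes with 80 to 100 had 284 (319 genes). A gene with 100 bound reads and 10 exonic reads has an occupancy of 100, and one with 1000 bound reads and 10 exonic reads has 10. The rule counts all crosslinked reads, so a scarce transcript can enter with fewer exonic reads, and 75 of 881 members in the lowest of 5 equal groups by bound reads were called low.

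Among members, abundant transcripts carried fewer footprints per bound read. With members in 5 equal groups by bound RPKM, the median occupancy was 186, 182, 158, 150 and 65.5 reads per 1000 from the lowest to the highest group. The 4 groups of lower RPKM lay closer together than the top group. By bound reads the medians were 239, 191, 146, 117 and 61.8, which fell at each step. Across 4292 members with exonic reads the log values had Pearson's r of -0.40 and Spearman's rho of -0.28. These genes are not independent replicates, and bound reads are also the denominator of occupancy. The minimum of 10 crosslinked reads keeps out many scarce transcripts of low occupancy, so part of the fall can come from the rule. With no minimum the median over 7034 genes was 56.3. How the groups would stand without the minimum was not tested.

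Transcript features showed smaller trends. Of 5 such groups by 3′ UTR length, the one with the shortest, a median of 146 bases, had a median of 91.6 reads per 1000, and the one with the longest, a median of 4467 bases, had 190. The values in between were 126, 163 and 181. From the lowest to the highest group by GC content the medians were 144, 128, 156, 159 and 141, which shows no order. By uridine content, which bears on 4SU uptake, they were 134, 144, 148, 140 and 162.

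Ribosomal protein mRNAs, most of which encode structural proteins of the ribosome, had the lowest occupancy of the 31 lists. Of 82 with at least 100 bound reads, 59 were members, with a median of 4.23 reads per 1000, 0.0290 times the median member. Of these, 58 were called low and none high (98.3% low), and 12 had 0 exonic reads. With 2016 bound reads of the same members the list stood at 0.0600 times the median member, and with all crosslinked reads at 0.0596 times. Of the 59, 57 have named processed pseudogenes in the annotation, and reads that fit several copies may have been counted elsewhere or not at all, which was not tested.

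RPLP0, a protein of the ribosomal stalk, had 134 exonic reads on 21253 bound reads in APEX2-NES, an occupancy of 6.30 (interval 5.28 to 7.47). In the other lines it stood at 0 in H2B-APEX2, 1.58 in Connexin43-APEX2 and 2.76 in the negative control, values that are not scaled for depth. Relative to the median gene RPLP0 stood at -0.77 on the log2 scale in APEX2-NES minus the negative control. RPL4, of the large subunit, had 20 exonic reads on 16220 bound reads, 1.23 (0.753 to 1.90). Both values in APEX2-NES lay below the 5th percentile of its members, 12.5.

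RPS2, of the small subunit, had 0 exonic reads on 23223 bound reads, which allows at most 0.159 reads per 1000. It had 86 crosslinked reads in all, 3.70 per 1000 bound reads. RPL3 likewise had 0 exonic reads on 14373 bound reads and 159 crosslinked reads, 11.1 per 1000. RPS27A, RPS12, RPL27, RPL24, RPL12 and RPS28 were also at 0 exonic reads, with 10 to 113 crosslinked reads each. For such genes the reads lay in introns or in none of the 4 annotated regions, so 0 exonic reads does not mean no footprint.

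Other mRNAs known to carry TOP tracts, such as elongation factor mRNAs, were low as well. Of 15 members, 14 were called low and none high, and the median was 10.3 reads per 1000, 0.0703 times the median member. By all crosslinked reads the list median was 26.7 per 1000, 0.152 times the median member. EEF1A1, the elongation factor that delivers tRNAs, had 278 exonic reads on 77640 bound reads, 3.58 (3.17 to 4.03), and 1.17 in H2B-APEX2, 2.44 in Connexin43-APEX2 and 2.13 in the negative control. These values are not scaled for depth, and relative to the median gene EEF1A1 stood at -1.21 on the log2 scale in APEX2-NES minus the negative control, which was not a called difference. EEF2, the translocation factor, had an exonic occupancy of 6.72 but 64.0 with all of its 2429 crosslinked reads. GNB2L1, a ribosome-associated scaffold, was higher at 34.3 (31.3 to 37.5), and NPM1, a nucleolar histone chaperone, had 0.799 (0.321 to 1.65).

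PABPC1, the cytoplasmic poly(A)-binding protein, whose mRNA is also a TOP mRNA, had 72 exonic reads on 7985 bound reads, 9.02 (7.05 to 11.4). YBX1, a major mRNA packaging protein, had 0 exonic reads on 13995 bound reads and 16 crosslinked reads in all. They were low members of a list of cytoplasmic mRNA-binding proteins that stood high as a whole. That list had a median of 359 reads per 1000, with 19 of 33 members high and 4 low.

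Metabolic mRNAs of high abundance were mostly low. Glycolytic enzymes had a median of 28.5, with 10 of 11 members low and none high. GAPDH stood at 18.1 (16.0 to 20.4), ENO1 at 27.6 and PKM at 50.4, and their bound reads were 15456 for GAPDH, 15861 for ENO1 and 12593 for PKM. Nuclear genes of the respiratory chain had a median of 33.7, with 41 of 53 members low and 2 high, and ATP5B, a subunit of ATP synthase, had 42.0 (36.3 to 48.3). With all crosslinked reads the lists stood at 0.21 and 0.32 times the median member.

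Cytoskeletal mRNAs were low. Among actin cytoskeleton genes 15 of 20 were low and none high, with a median of 43.0, and among tubulins 6 of 7 were low, with a median of 38.0. ACTB, cytoplasmic actin, had 638 exonic reads on 12960 bound reads, 49.2 (45.4 to 53.3), and MYH9, non-muscle myosin, had 14.6 (11.9 to 17.8). TUBA1A, an alpha-tubulin with near-identical paralogs that can share reads, had 2.98 (1.77 to 4.71). ACTG1 and FLNA had 14142 and 15446 bound reads and 0 crosslinked reads in APEX2-NES, and 0 crosslinked reads in each of the other lines. Fibroblasts also express both strongly. In H2B-APEX2, where fibroblast-like genes held 0.0664% of protein-coding bound reads, ACTG1 and FLNA had 8422 and 5266 bound reads. The reason for their 0 crosslinked reads was not tested.

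Membrane and secretory mRNAs had low medians against all members, but came within 2-fold of members of similar abundance, the endoplasmic reticulum list at -0.48 and cell surface proteins at -0.01 on the log2 scale. Among members with at least 1000 bound reads the endoplasmic reticulum list stood at 0.51, above the median member. The endoplasmic reticulum list had 17 of 28 members low and none high, with a median of 59.3, and cell surface proteins had 9 of 17 low and 2 high, with a median of 62.4. Selenoprotein mRNAs, whose UGA codons are decoded with the help of a 3′ UTR element, had 7 of 10 low and none high, with a median of 55.7. High mobility group genes had 6 of 8 low and 2 high, with a median of 40.2.

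Replication-dependent histone mRNAs, which end in a stem-loop in place of a poly(A) tail, were low by exonic reads only. Their median was 12.1, with 11 of 16 members low and 1 high, but 74.8% of their crosslinked reads lay in none of the 4 regions, and with all crosslinked reads the list stood at 0.93 times the median member. HIST1H1E, a linker histone, had 0 exonic reads on 5967 bound reads and 670 crosslinked reads, 112 per 1000. HIST1H1C had 276 exonic of 871 crosslinked reads, 83.6 per 1000 by exonic reads and 264 by all. HIST1H2BK had 24.2 by exonic reads and 63.6 by all.

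Transcripts of the stress response and of short-lived regulators were at the high end. The integrated stress response list, the targets and factors of translational control through ATF4, had a median of 459 reads per 1000, 3.15 times the median member. Of its 12 members 7 were high and none low, and the 12 ranged between 117 and 1645. ATF4 had 540 exonic reads on 1890 bound reads, 286 (259 to 315). SHMT2, a mitochondrial serine enzyme, had 267 (237 to 301), and PHGDH, the first enzyme of serine synthesis, had 142 (120 to 167), so these abundant members did not meet the rule and the high calls lay in others. With 2016 bound reads the list stood at 2.77 times the median member.

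Immediate early and short-lived mRNAs had 7 of 11 members high and 1 low, with a median of 343. MCL1, an anti-apoptotic protein with a short half-life, had 520 exonic reads on 841 bound reads, 618 (553 to 691), and JUN, a transcription factor, had 328 (291 to 368). ID3, an inhibitor of helix-loop-helix factors, had 123 (91.4 to 162). With 2016 reads the list stood at 1.57 times the median member and no longer 2-fold above it.

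Cyclins and mitotic genes had 10 of 16 high and 3 low, with a median of 351. MKI67, a proliferation marker, had 361 (336 to 388), whereas CCND1, cyclin D1, had 65.5 (54.9 to 77.5) and TOP2A, a topoisomerase, had 70.2 (56.8 to 86.1). The list thus held members of both calls. With 2016 reads it stood at 1.94 times the median member, and with clusters in place of reads at 0.08 on the log2 scale, close to the median member.

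Among splicing factors, SR proteins had 5 of 10 high and 1 low, with a median of 353, and transcripts known for retained introns had 8 of 14 high and 3 low, with a median of 300. SRSF1 had 670 exonic reads on 1329 bound reads, 504 (459 to 554), SRSF9 had 108 (86.6 to 134) and SRSF10 had 0 exonic of 13 crosslinked reads. TRA2B, a splicing regulator, had 329 (281 to 384), and OGT, the enzyme that adds O-GlcNAc, had 362 (308 to 424). With 2016 reads both lists fell inside 2-fold of the median member, at 1.84 and 1.75 times.

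The remaining lists lay within 2-fold of the median member. Zinc finger genes, which encode many repressors, had a median of 212 with 40 of 97 high and 11 low, RNA polymerase subunits 221 with 7 of 16 high and 5 low, and hnRNPs 195 with 8 of 18 high and 6 low. DEAD and DEAH box helicases had 181 with 8 of 26 high and 3 low, mitochondrial ribosomal proteins 167 with 12 of 45 high and 10 low, and nucleolar proteins 163 with 3 of 14 high and 2 low. Aminoacyl-tRNA synthetases had 138 with 4 of 17 high and 4 low, the CCT chaperonin 125 with none of 8 high and 1 low, and translation initiation factors 99.5 with 6 of 35 high and 13 low. Heat shock chaperones had 90.1 with 1 of 12 high and 3 low, proteasome subunits 86.5 with 3 of 27 high and 11 low, and mitochondrial genome mRNAs 79.1 with 1 of 11 high and 3 low. Within the mitochondrial ribosomal list MRPS34 had 416 (361 to 479), MRPL37 had 68.8 (51.1 to 91.0) and MRPL51 had 0 exonic of 83 crosslinked reads, so neither call describes it as a whole.

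**Figure D2:**
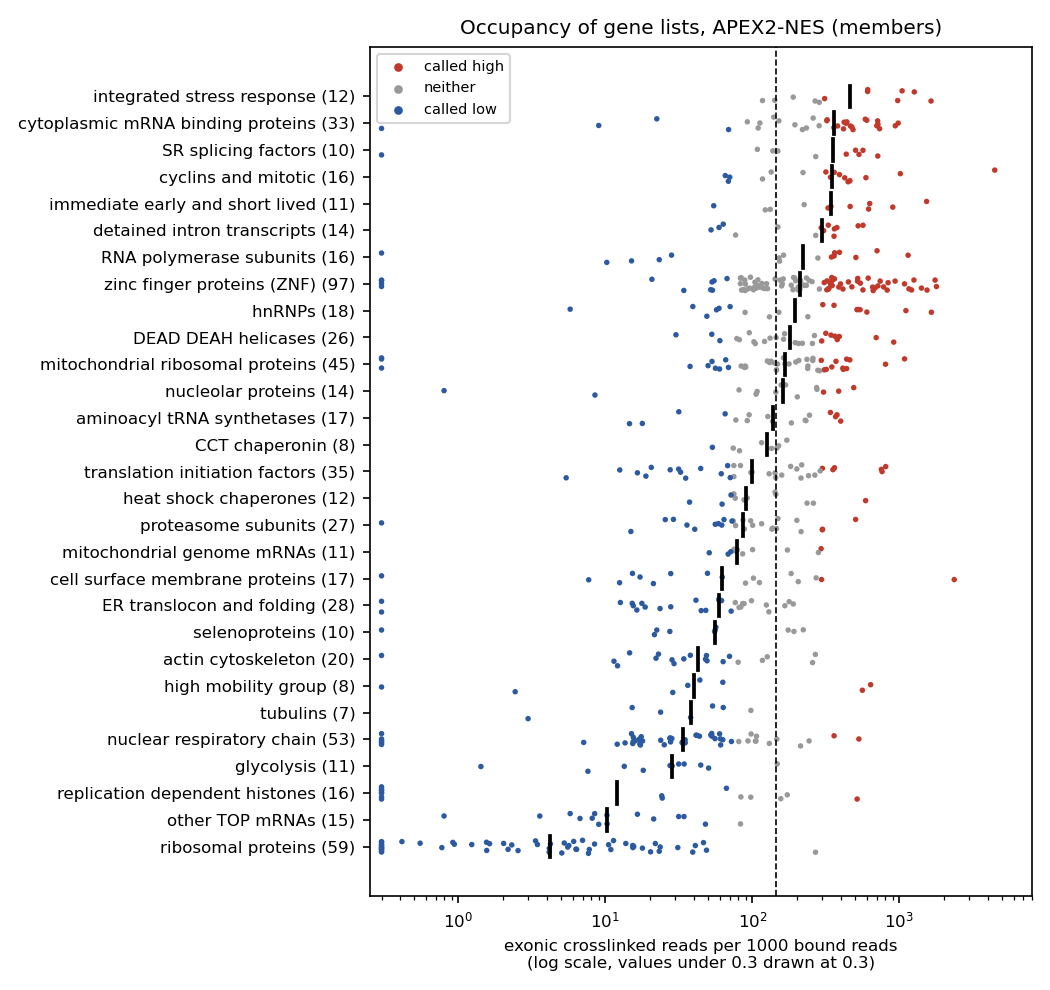
Each row is a gene list with its number of members in brackets, and each dot is a member placed by its exonic crosslinked reads per 1000 bound reads in APEX2-NES on a log scale. Black bars are list medians and the dashed line is the median of all members, 145.7. The list medians run between 4.23 for ribosomal proteins and 459 for the integrated stress response.

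Occupancy of members also fell with abundance. Each list was therefore set beside members of similar abundance, in 10 equal groups by bound reads, a comparison chosen after seeing the data. On the log2 scale histones then lay at -4.20, the ribosomal list at -3.16, other TOP mRNAs at -1.93, respiratory chain genes at -1.49 and tubulins at -1.23. Selenoproteins, at -0.87, the actin list, at -0.62, glycolysis, at -0.52, the endoplasmic reticulum list, at -0.48, high mobility group genes, at -0.27, and cell surface proteins, at -0.01, came within 2-fold. The histone value holds for exonic reads, while by all crosslinked reads the histone list lay near the median member. The integrated stress response lay at 2.26, hnRNPs at 1.73, cytoplasmic mRNA-binding proteins at 1.57 and SR splicing factors at 1.37. Cyclins and mitotic genes lay at 1.34, immediate early genes at 1.27, aminoacyl-tRNA synthetases at 1.03 and mitochondrial genome mRNAs at 1.00.

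The 12 members with the highest lower bounds of occupancy had more exonic footprint reads than bound reads. KCTD15, a BTB-domain protein (chr19:34286838-34306668, plus strand, hg19), had 760 exonic reads on 115 bound reads in APEX2-NES, 6609 per 1000 (5425 to 8112). In the other lines it stood at 1894 in H2B-APEX2, 1399 in Connexin43-APEX2 and 327 in the negative control. KLHL15, an adaptor of a ubiquitin ligase (chrX:24001837-24045303, minus strand, hg19), had 6078 in APEX2-NES, 3420 in H2B-APEX2, 2434 in Connexin43-APEX2 and 712 in the negative control.

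CCND2, cyclin D2 (chr12:4382938-4414516, plus strand, hg19), had 1217 exonic reads on 273 bound reads in APEX2-NES, 4462 (3906 to 5102), and 86.0% of them were in the 3′ UTR. The others were GRPEL2, a mitochondrial co-chaperone, at 4725, TSC22D3, a glucocorticoid-induced leucine zipper protein, at 4049, and RCC1, the exchange factor of Ran, at 3857. SOX4, a developmental transcription factor, stood at 3538, IRS4, an insulin receptor substrate, at 3169, and AKIRIN1 at 2961. TAF7, a subunit of TFIID, stood at 2924, FAM168B at 2835 and E2F1, a cell cycle transcription factor, at 2774.

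Bound reads of these 12 members were low, between 103 and 303, close to the limit of 100. All 12 had more bound reads in the 2016 table, and with those reads the occupancies were lower, between 546 for IRS4 and 2921 for GRPEL2. KCTD15 had 460 bound reads there and an occupancy of 1653, and RCC1 had 647 and 668. Every one of the 12 stayed more than 2-fold above the 2016 median of all members, 131 reads per 1000.

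**Figure D3:**
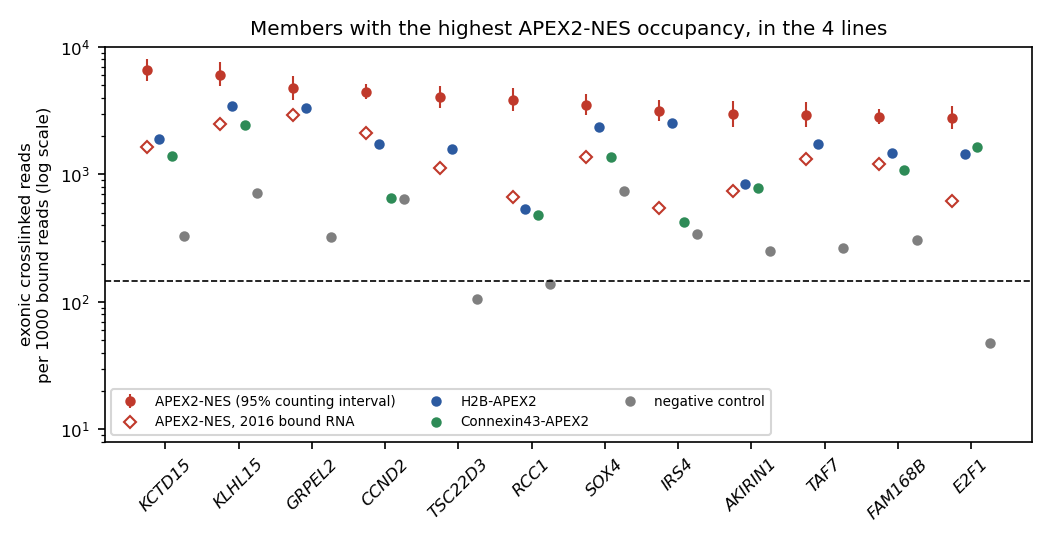
Occupancy of the 12 members with the highest lower bounds, on a log scale. For each gene the points run APEX2-NES with its 95% counting interval, H2B-APEX2, Connexin43-APEX2 and the negative control, the open diamond uses 2016 bound reads of APEX2-NES, and the dashed line is the median member at 145.7. A missing point is a gene that did not meet the rule in that line.

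At the other extreme, 1818 of 7034 protein-coding genes with at least 100 bound reads had no crosslinked read in APEX2-NES and a further 813 had 1 to 9. Of 639 genes with at least 1000 bound reads, 478 were members and 120 had no crosslinked read. These 120 held 15 of the 16 fibroblast-like genes and 13 of the 74 ribosomal protein genes of that abundance. RPL7A, a ribosomal protein gene with 15552 bound reads in APEX2-NES, had 0 crosslinked reads there and in each of the other lines. Among members, MTRNR2L12 and MTRNR2L8, nuclear copies of mitochondrial ribosomal RNA whose reads cannot be told from it, had 0.103 and 0.176 reads per 1000.

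Exonic footprints of the members were split between coding sequence and 3′ UTR. The 5′ UTR held 4.23% (4.17 to 4.30) of 395103 exonic reads, the coding sequence 52.1% (51.9 to 52.2) and the 3′ UTR 43.7% (43.5 to 43.8). Crosslinked reads were also set against the bound reads expected over a region from its length. Per 1000 such bound reads, the median member had 223 in coding sequence and 173 in the 3′ UTR. Reads in the 5′ UTR were found in 27.7% of members with a 5′ UTR of at least 100 bases. Pooled over members these densities were 193 and 229, and 43.3 in the 5′ UTR. The order of coding sequence and 3′ UTR thus depended on whether genes or reads were weighted.

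Lists differed in where their reads lay. Pooled over members, 85.4% of exonic reads of the CCT chaperonin, 84.5% of nucleolar proteins and 79.9% of aminoacyl-tRNA synthetases were in the coding sequence. SR splicing factors had 60.4% in the 3′ UTR, selenoproteins 57.6% and immediate early genes 54.4%. In a check chosen after the data were seen, without SRSF1 the share of SR factors was 45.8%, and without MCL1 that of immediate early genes was 43.9%, both near the 43.7% of all members. Without TXNRD1 that of selenoproteins was 59.1%. Mitochondrial genome mRNAs, which have almost no UTRs, had 100% in the coding sequence.

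Single mRNAs were often dominated by 1 region. Of 452 members with at least 200 exonic reads, 245 had most of them in the 3′ UTR, 178 in the coding sequence and 5 in the 5′ UTR. The 5′ UTR members with the most reads were C6orf62, C19orf48 and CDKN1B, the cell cycle inhibitor p27, with occupancies of 930, 345 and 1606. PMAIP1, the pro-apoptotic protein NOXA, had all of its 443 exonic reads in the 3′ UTR and an occupancy of 1952 (1659 to 2300). MTPN, myotrophin, at 654 and H2AFX, a histone variant, at 164 also had all of theirs in the 3′ UTR. MT-CO1, a subunit of cytochrome oxidase, had 7398 exonic reads, all in the coding sequence, on 86071 bound reads, 86.0 (83.9 to 88.0).

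Coding sequence held more of the reads in APEX2-NES than in H2B-APEX2 in the same genes. Over 3500 genes with at least 10 exonic reads in both lines, 48.2% of exonic reads were in the coding sequence in APEX2-NES and 39.5% in H2B-APEX2, and the 3′ UTR held 47.2% and 56.3%. The coding share was higher in APEX2-NES for 2047 of these genes, lower for 1174 and equal for 279, with a median difference of 5.35 percentage points. Against Connexin43-APEX2 the pooled shares over 2238 genes were 52.4% in APEX2-NES and 54.6% in Connexin43-APEX2, with 958 genes higher and 1002 lower. Against the negative control they were 50.7% in APEX2-NES, against 53.5% in the negative control, over 2303 genes, with 1104 higher and 931 lower. These shares use no bound RNA.

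**Figure D4:**
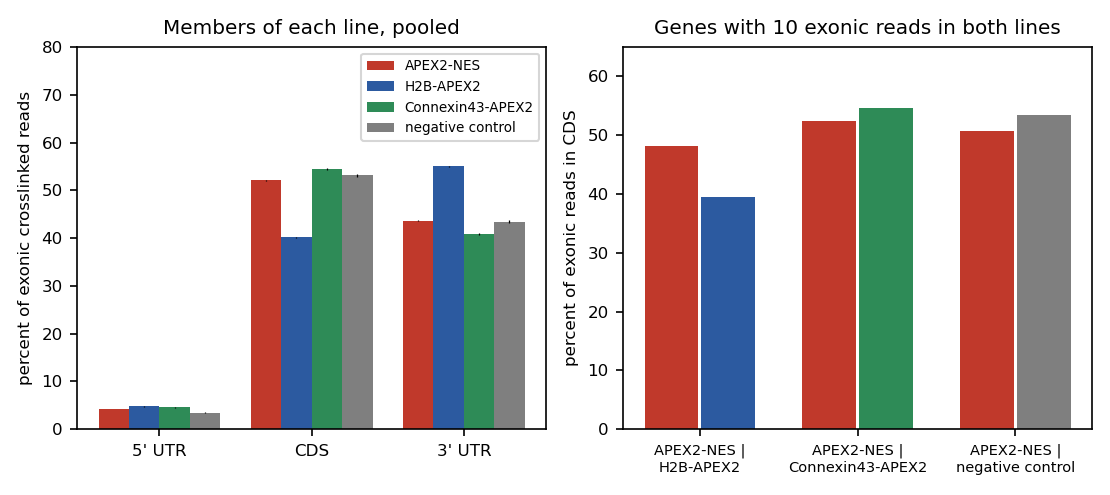
The left panel gives the percent of exonic crosslinked reads in each region over the members of each line, with 95% Clopper-Pearson intervals. The right panel gives the coding share of APEX2-NES and of each other line over genes with at least 10 exonic reads in both lines, and it is 48.2% in APEX2-NES against 39.5% in H2B-APEX2.

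Occupancy was compared between lines over genes that met the rule in both. The log2 difference was centred on the median gene, since libraries differ in depth, and a gene was called when it differed at least 4-fold and its interval excluded 2-fold. The 3 comparisons share the APEX2-NES libraries. As a description across genes, log occupancies of members in APEX2-NES had Pearson's r of 0.69 with H2B-APEX2 (3703 genes), 0.77 with Connexin43-APEX2 (2395 genes) and 0.67 with the negative control (2582 genes). The points share gene length, sequence and the annotation.

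Against H2B-APEX2, 333 of 3847 genes were higher in APEX2-NES (8.66%) and 319 were lower (8.29%). This balance is set by the centring. Scaled to library totals and not centred, the median gene lay at 1.16 on the log2 scale, and 1035 genes were higher and 64 lower. Protein-coding genes held 31.9% of bound reads in APEX2-NES and 60.1% in H2B-APEX2. Scaling to library totals carries this difference into every gene. Of the centred calls, 42 higher and 27 lower genes had 0 exonic reads in the line where they were low. For 3500 genes with at least 10 exonic reads in both lines, a limit chosen after seeing the data, 260 were higher (7.43%) and 249 lower (7.11%). Single genes named in the comparisons are from such genes, whereas list medians and calls cover all tested genes unless stated.

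The CCT chaperonin, which folds actin and tubulin, had the largest positive shift of the lists. All 8 members had positive differences, 4 were called higher, and the median was 2.41 on the log2 scale. Their exonic reads summed to 1046 in APEX2-NES and 1677 in H2B-APEX2, and their bound reads to 9451 and 53503, so the lines differed more in the denominator. CCT8 had 100 exonic reads on 1348 bound reads in APEX2-NES, 74.2 per 1000, and 19 on 14046 in H2B-APEX2, 1.35 per 1000, a centred difference of 64.1-fold (SE 0.36 on the log2 scale). CCT7 had 53.5 in APEX2-NES and 6.17 in H2B-APEX2, and CCT3 had 147 and 78.0.

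Heat shock chaperones lay at 2.08 with 6 of 11 called higher, aminoacyl-tRNA synthetases at 1.40 with 6 of 17, hnRNPs at 1.28 with 6 of 18 and initiation factors at 1.21 with 9 of 34. With at least 10 exonic reads in both lines the initiation factors lay at 1.17 with 5 of 30 called higher. The integrated stress response list lay at 1.11 with 1 of 10 called higher. None of these lists had a gene called lower except the initiation factors, with 1. With all crosslinked reads the synthetases came to 0.64 and the CCT list to 1.69. Ribosomal proteins had 14 of 58 higher and 9 lower, with a median of 0.23 that turned to -0.33 in the 26 genes with at least 10 exonic reads in both lines.

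Single genes higher in APEX2-NES were U2AF1, a 3′ splice site factor, with 243 per 1000 in APEX2-NES and 5.70 in H2B-APEX2, and SSRP1, a histone chaperone subunit, with 121 and 3.42. LCP1, an actin-bundling protein, had 179 in APEX2-NES and 6.42 in H2B-APEX2, and FBL, the methyltransferase of nucleolar RNA, had 81.2 and 3.27. Genes lower in APEX2-NES were CITED2, a transcriptional coregulator, with 13.4 in APEX2-NES and 820 in H2B-APEX2, ATP2B4, a calcium pump, with 8.99 and 377, TCF4, a transcription factor, with 39.0 and 1370, and NEK7, a kinase, with 42.9 and 1453. RPL18 had 2.31 and 51.9. CITED2 had 12 exonic reads on 897 bound reads in APEX2-NES and 118 on 144 in H2B-APEX2. ATP2B4 had 16 on 1780 in APEX2-NES and 126 on 334 in H2B-APEX2. These lines also differed in fibroblast-like bound reads, as given above, and a link to these genes was not tested.

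Against Connexin43-APEX2, 106 of 2504 genes were higher in APEX2-NES (4.23%) and 99 lower (3.95%), and over 2238 genes with at least 10 exonic reads in both lines 57 were higher (2.55%) and 71 lower (3.17%). Tubulins lay at -1.13 with 1 of 5 called lower, actin cytoskeleton genes at -0.99 with 1 of 16 and respiratory chain genes at -0.97 with 4 of 32 lower and 1 higher. With at least 10 exonic reads in both lines, actin genes lay at -0.85 with 1 of 15 lower. Respiratory chain genes then lay at -0.93 with 3 of 23 lower and none higher. CDK4, a cyclin-dependent kinase, had 753 per 1000 in APEX2-NES and 39.8 in Connexin43-APEX2, from 225 and 10 exonic reads. With all crosslinked reads its centred log2 difference was 1.96 and it was no longer called, against 3.74 with exonic reads. Genes lower in APEX2-NES were FURIN, a proprotein protease, with 54.8 in APEX2-NES and 682 in Connexin43-APEX2, and TUBG1, gamma-tubulin, with 23.8 and 249.

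Against the negative control, occupancy was a median of 3.87-fold higher in APEX2-NES before centring, a scale that depends on library depth. Scaled to library totals, the median log2 difference was -0.34. After centring, 116 of 2707 genes were higher in APEX2-NES (4.29%) and 206 were lower (7.61%), and with at least 10 exonic reads in both lines 75 of 2303 were higher (3.26%) and 155 lower (6.73%). Genes with fewer than 10 crosslinked reads in the negative control were not tested, which bears on how these counts divide.

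Relative to the median gene, several of the lists that were low in APEX2-NES stood lower there than in the negative control. Ribosomal proteins lay at -1.43 with 12 of 42 called lower and 1 higher, other TOP mRNAs at -1.21 with 4 of 13 lower, glycolysis at -1.60 with 3 of 9 lower and respiratory chain genes at -1.60 with 11 of 29 lower and none higher. Other low lists did not follow, with the actin list at -0.04, 7 of 14 genes positive, and high mobility group genes at 0.91, 5 of 6 positive. Histones lay at -1.50 over 15 genes and at 0.25 over the 8 with at least 10 exonic reads in both lines. These values are centred. They cover 42 of 59 ribosomal and 29 of 53 respiratory chain members, those that also met the rule in the negative control. The negative control held fewer crosslinked reads, so genes of low occupancy there were more often left out. Over all members the respiratory chain median in APEX2-NES was 33.7. What this selection adds to the differences was not tested. As measured over the genes tested, the median of ribosomal proteins was 6.65 in APEX2-NES, against 4.51 in the negative control. That of the respiratory chain was 59.9 in APEX2-NES, against 31.1 in the negative control. RPL18 had 2.31 per 1000 in APEX2-NES, against 9.53 for the negative control. PSMB5, a proteasome subunit, had 35.9 in APEX2-NES, against 162 for the negative control, with 176 of its 195 crosslinked reads in APEX2-NES in none of the 4 regions. With all crosslinked reads PSMB5 was no longer called, at -0.69 against -4.11.

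Mitochondrial genome mRNAs stood higher in APEX2-NES, at 1.08 on the centred log2 scale with 9 of 10 positive and 3 called higher. Their bound reads summed to 247383 in APEX2-NES, against 1299661 in the negative control, and their exonic reads to 24163 and 14886. MT-ND5, a subunit of complex I, had 1941 exonic reads on 25823 bound reads in APEX2-NES, 75.2 per 1000, and 89 on 219987 in the negative control, 0.405 per 1000. With the 2016 bound RNA of both lines the centred log2 difference of MT-ND5 was 1.55, against 5.58 with that of 2017, and it was no longer called. MT-CO3, also called with 2017 bound RNA at 4.74, came to 1.37 with that of 2016 and was no longer called. MT-ND6, the other gene called, had 1465 crosslinked reads in the negative control, none of them exonic. In H2B-APEX2 the bound RNA lists these genes at 0, so no occupancy is given there. MT-ND4 had 100 per 1000 in APEX2-NES, 114 in Connexin43-APEX2 and 20.8 in the negative control.

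E2F1 had 2774 per 1000 in APEX2-NES, against 47.4 in the negative control, from 344 and 18 exonic reads, and its centred log2 difference was 3.88 with 2017 and 1.20 with 2016 bound RNA, where it was no longer called. Immediate early genes lay at 1.48 with 4 of 6 positive and 1 called higher, and cyclins and mitotic genes at 0.77 with 8 of 12 positive and 1 called higher. RNF220, a ubiquitin ligase, had 1638 in APEX2-NES, against 31.8 for the negative control. NXF1, the main mRNA export receptor, was among the genes lower in APEX2-NES, with 84.3 per 1000 in APEX2-NES, against 328 for the negative control, from 15 and 33 exonic reads.

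**Figure D5:**
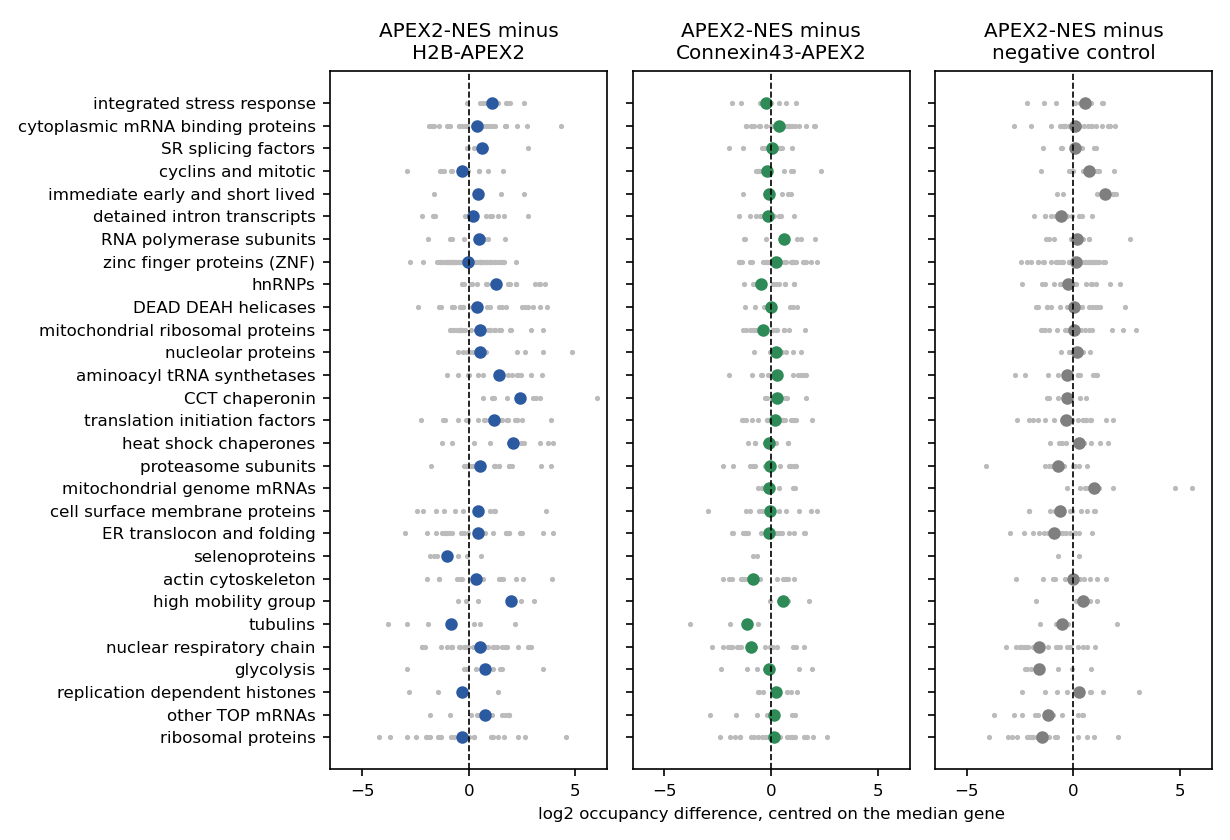
Each row is a gene list and each panel a comparison of APEX2-NES with another line, on the log2 scale centred on the median gene. Small dots are genes with at least 10 exonic reads in both lines and large dots are list medians over them, so positive values are higher in APEX2-NES. The CCT chaperonin stands at 2.41 against H2B-APEX2.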

How the data were processed

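The authors deposited expected counts and RPKM per gene for bound and total RNA, and counts of crosslinked reads and clusters per gene and region for footprints. Tables of 2016 and 2017 were used. Per the submitters' processing notes, bcl2fastq 2.17.1, TopHat and hg19 were used. The TopHat version, read counter, annotation and cluster caller are not given in the sources used here. In the deposited expected counts 0.001 had been added to each value, 0 included, and it was subtracted here. Expected counts were used unrounded, and no count model was fitted. Bound RNA was prepared without depletion of ribosomal RNA and total RNA with it, per the labels' protocols. Columns were matched to samples by line name, and 1 column that names no line was not used. The 2016 columns named for a line were taken as bound RNA.

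Tables were joined by Ensembl identifier. Occupancy intervals are exact conditional binomial (Clopper-Pearson) intervals. They take reads as independent molecules, which PCR copies are not. Differences between lines added 0.5 to exonic counts and used delta-method standard errors. Transcript lengths, GC and uridine content were from GENCODE 29 on GRCh38, for 4397 of 4403 members, and no coordinates were moved between builds. Region lengths were from GENCODE 29 too, whereas region reads follow the deposited counts on hg19, and the 2 can disagree. CDKN1B had 191 reads placed in the 5′ UTR, but a 5′ UTR of 18 bases in the transcript used.

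Genes were named by rule: the 12 highest lower and 12 lowest upper bounds, 3 members per list with most bound reads, 5 per direction in each comparison and 3 per region. Genes at 0 exonic reads filled most of the places between lines, so the same rule was applied to genes with at least 10 exonic reads in both lines. The members and lists were chosen with earlier results of these data known. The calculation was checked on simulated counts. Calculations ran in Python 3.11.15 on pandas 2.3.3 and numpy 2.4.6, intervals came from scipy 1.17.1 and plots from matplotlib 3.10.9.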

Additional observations from a re-analysis of the deposited data

Results flagged for a closer look

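Of the crosslinked reads of APEX2-NES members, 15.9% lay in none of the 4 regions that the deposited counts distinguish, against 11.6% in the negative control. They enter no occupancy by exonic reads.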

How the results depend on the processing

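Each line had 1 sample of a kind, so no replicate could be left out. No paired analysis was possible because every group held 1 sample. The median occupancy of 145.7 was 138.1 with 2016 bound RNA, 127.6 with total RNA as the denominator, 222.7 at 30 crosslinked reads, 56.34 with no minimum, 42.58 at 1000 bound reads, 175.7 with all crosslinked reads and 16.49 with clusters in place of reads. Members called high and low came to 718 and 768 at 30 crosslinked reads, to 2564 and 2691 with no minimum and to 139 and 168 at 1000 bound reads, and 716 were low with clusters. These settings also change how many genes are tested. Of the lists with at least 5 members, 17 had a median at least 2-fold from the median member, and 5 did at 1000 bound reads. Fewer lists held 5 members at 1000 bound reads, so these counts have different bases. Ribosomal proteins, other TOP mRNAs and the respiratory chain stayed at least 2-fold below the median member under all 8 alternatives, and no list stayed 2-fold above under all that could be computed. The integrated stress response fell to 0.25 on the log2 scale with clusters.

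Relative to a median of only abundant members, at 1000 bound reads, signs turned for the endoplasmic reticulum list (0.51), tubulins (0.33), CCT7 (0.34), PKM (0.25), ACTB (0.21), CCND1 (0.63) and TOP2A (0.73). With no minimum they turned for MRPL37 (0.30), CCND1 (0.22) and TOP2A (0.33). With total RNA CCND1 stood at 2.16 and TOP2A at 0.27. With clusters SRSF1 stood at -0.70, TRA2B at -0.22, MRPS34 at -0.76, JUN at -0.73 and C19orf48 at -1.64. Of 431 values of single members under alternatives, 348 kept their direction and side of 2-fold. The 5′ UTR, coding sequence and 3′ UTR shares were 4.42%, 50.02% and 45.6% by clusters, 4.11%, 51.6% and 44.3% at 30 crosslinked reads and 4.53%, 49.1% and 46.4% without the 10 members with most reads.

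Scaled to library totals and not centred, 1035 genes were higher and 64 lower in APEX2-NES than in H2B-APEX2, since the median gene then lay at 1.16 on the log2 scale. That scale includes the difference between these lines in the protein-coding share of bound reads given above. By the same scaling 67 genes were higher than in the negative control. At 30 crosslinked reads in both lines the counts higher and lower were 202 and 166 against H2B-APEX2, 37 and 39 against Connexin43-APEX2 and 27 and 63 against the negative control. At 1000 bound reads they were 55 and 43 against H2B-APEX2, 12 and 14 against Connexin43-APEX2 and 11 and 32 against the negative control. With 2016 bound RNA 187 genes were lower than in Connexin43-APEX2. With at least 10 exonic reads in both lines 57 were higher than in Connexin43-APEX2 and 75 than in the negative control, and with all crosslinked reads 63 were higher than in Connexin43-APEX2. The limit of 10 exonic reads, the use of all crosslinked reads between lines, a GC correction, which moved no count over 1.5 times, and the comparison at similar abundance were chosen after seeing the data. Beyond the constructions named, the cause of a change was not tested. Counting error limits genes near 10 crosslinked reads most.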
